A study of Mus musculus with 8 samples.

Results

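FURIN KO and WT peritoneal macrophages that had been kept in lipopolysaccharide (LPS) for 24 h were compared on 2 two-colour Agilent arrays, chosen by their titles from the 8 arrays of the series. The other arrays held the same genotypes unstimulated, after 1 h and after 4 h of LPS, with 2 arrays at each time. Each array carried the KO RNA in 1 dye and the WT RNA in the other, with KO in Cy5 in replicate 1 and in Cy3 in replicate 2. Per the study's methods, KO cells came from mice with the genotype LysMCre-fur(fl/fl). These were bred from floxed mice repeatedly backcrossed to C57BL/6 and from LysMCre mice of C57BL/6 background. WT cells came from littermates, and LPS was used at 1 μg/ml. Cre driven by the LysM (Lyz2) gene deletes the floxed alleles in LysM-positive cells only, so other cells of a KO culture keep FURIN. The cells were washed out of the peritoneal cavity with buffer, and those that adhered to the plate were stimulated. The replicates are labelled biological, and whether a replicate was 1 mouse or a pool is not given in the sources used here. The labels' culture text names a stimulation of 4 h for every sample, so the times used here are those of the titles and source names.

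FURIN is a protease of the trans-Golgi network and the cell surface that cuts inactive precursors of growth factors, receptors and metalloproteases at paired basic residues. LPS is sensed by TLR4 and drives early NF-κB-dependent cytokine transcription, followed by a wave of interferon-stimulated genes and, late in the response, by a decline of many early transcripts. Interferon-γ, made by T and NK cells, and type I interferons act on macrophages through their receptors and transcription factors such as IRF1. They induce guanylate-binding proteins (GBPs) and immunity-related GTPases (IRGs), which attack vacuoles that hold intracellular pathogens.

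Every value below is the log2 of the normalized KO signal over the WT signal on 1 array, where 1 stands for a doubling and -1 for a halving, or the mean of the 2 arrays (n = 2) with limma's moderated standard error (SE), which draws on the spread within all 4 times. Levels are normalized log2 intensities, which can be compared between genotypes for 1 probe but not between genes. On the 24 h arrays 47.1% to 49.1% of the gene spots of a channel were well above background and 0 were saturated. Of 55681 gene probes, 27509 could be named. Together the probes stood for 37020 genes and transcripts, of which 36949 passed the filter on dim signals. Of the 36949, 15528 were well above background in no 24 h channel, and they count in the shares over all genes given below. The ratios of all 36949 had an SD of 0.221 on the replicate 1 array and 0.225 on the replicate 2 array. Across genes, which are not independent replicates, the ratios of the 24 h arrays had a Pearson r of -0.15.

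After 24 h, 9 of the 36949 genes and transcripts (0.0244%) passed the 0.05 threshold on the adjusted p of limma, fitted over all 8 arrays. Of these, 5 (0.0135%) were higher in KO: Gm4841, Gbp4, Clic5 and the unnamed transcripts NM_001039647 and XR_105914. The 4 lower in KO (0.0108%) were Lyz2, Bdh2, Tmeff1 and Pdgfb. With loess alone or Aquantile between arrays, which gave the called genes the same ratios, the split was 5 higher and 9 lower. When a term for the replicate number was added, 216 (0.585%) were called, among them all 9. Replicate number and dye orientation are the same thing in this design and cannot be told apart. Of the 216, 106 were higher (0.287%) and 110 lower (0.298%), and 104 (0.281%) and 100 (0.271%) of these had that sign on both arrays. Over all genes tested, 23.2% were higher in KO on both arrays and 21.6% lower. In what follows, "called" refers to the fit without that term, and genes that were not called there but passed when it was added are said to have passed with the replicate term. Some of these also passed in other settings without it, which are not repeated at each gene. No call remained from the 9 when either 24 h array was left out.

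**Figure D1:**
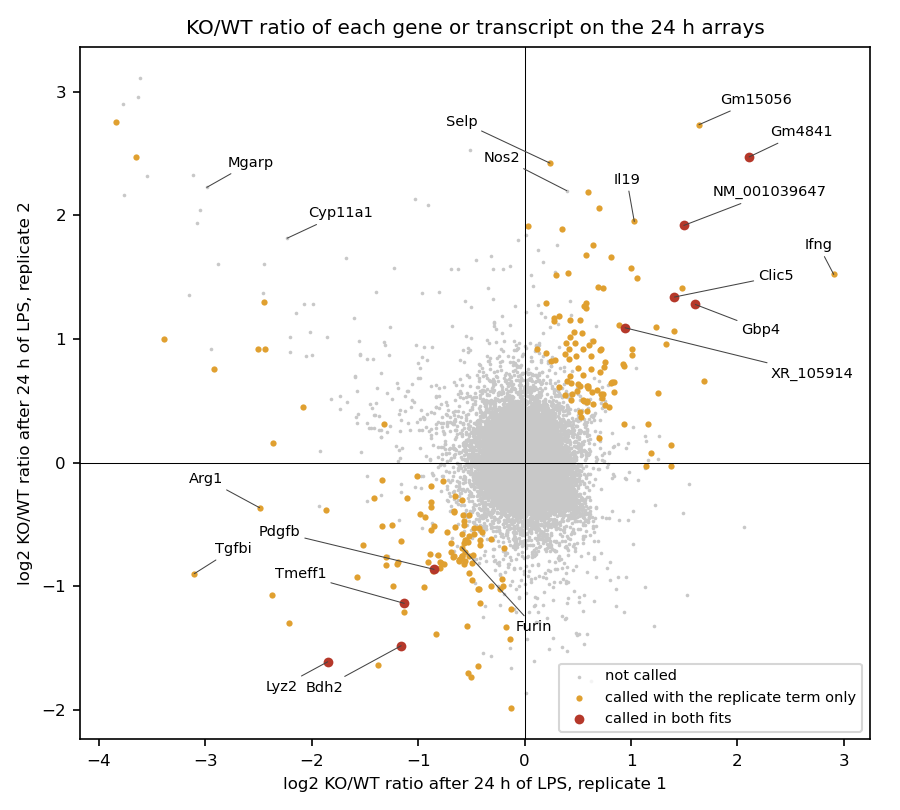
Each point is 1 of the genes or transcripts tested, with its log2 KO/WT ratio on the replicate 1 array (x axis) against that on the replicate 2 array (y axis) after 24 h of LPS. The 9 genes called in both fits (red) lie along the diagonal, whereas Tgfbi, Arg1, Selp and Nos2 were far from 0 on 1 array and nearer to it on the other, and Mgarp and Cyp11a1 had opposite signs.

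The Furin signal was lower in KO on both 24 h arrays. Its level was 10.60 and 10.38 in KO and 11.19 and 11.06 in WT in replicates 1 and 2. The ratios of -0.59 and -0.69 averaged -0.64 ± 0.11 (SE), a 1.56-fold lower signal, with an adjusted p of 0.184 and of 0.0227 with the replicate term. The ratio averaged -0.72 unstimulated and -0.56 after 1 h, but 0.16 after 4 h, so that the channels labelled KO were not lower on the 4 h arrays. Where the probe lies relative to the deleted exon is not given in the sources used here. The 4 h arrays enter the results below through the normalization between arrays, the shared estimate of the spread and the comparisons between times. When the fit, though not the normalization, left them out, 11 genes were called, 7 of them among the 9, and Gbp4 (adjusted p = 0.0749) and Pdgfb (adjusted p = 0.0672) were not.

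Lyz2, the lysozyme gene that carries the Cre, was 14.23 and 14.01 in KO and 16.08 and 15.62 in WT. Its ratio of -1.73 ± 0.11 (adjusted p = 0.00631), a 3.32-fold lower signal, was the lowest among the called genes. It had been lower in KO at every other time as well, at -0.90 unstimulated, -0.98 after 1 h and -1.09 after 4 h. The probe for Lyz1, a close paralog whose transcripts may share signal with Lyz2, gave ratios of -1.13 and -1.21 after 24 h (adjusted p = 0.0724, and 0.00481 with the replicate term) and means between -0.26 and 0.09 before. Among the 100 tested genes on either side of Furin on chromosome 7, 0 were called and 3 passed with the replicate term (1.5%). The same counts held around Lyz2 on chromosome 10, against 0.777% of all named genes. The 3 near Lyz2 were Lyz1, the next gene, Ifng, 12 genes away, and Nts, 64 genes away on the other side.

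The cultures carried macrophage transcripts in both genotypes, since all 9 tested macrophage markers were well above background in every 24 h channel. Csf1r, the receptor for the macrophage growth factor CSF1, was 15.02 and 15.07 in KO and 15.49 and 15.65 in WT (ratio -0.53 ± 0.10, adjusted p = 0.236, and 0.0219 with the replicate term). Adgre1, which encodes the macrophage surface protein F4/80, had ratios of 0.25 and -0.31. Other cells were also represented: all 14 B-cell markers, 18 to 20 of 23 T and NK cell markers and 8 or 9 of 10 mast cell markers were above background in a 24 h channel. Averaged over the list, T and NK cell markers were 8.47 and 8.38 in KO and 8.07 and 8.32 in WT, a KO-minus-WT difference of 0.39 in replicate 1 and 0.063 in replicate 2. Mast cell markers were 8.85 in both KO channels and 8.60 and 8.15 in WT (differences of 0.25 and 0.69). B-cell markers differed by 0.094 and 0.13, and macrophage markers by -0.34 and -0.16, or by -0.15 and 0.026 over the 8 markers other than Lyz2. In RNA from a whole culture, fewer cells of a type and less RNA per cell cannot be told apart.

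**Figure D2:**
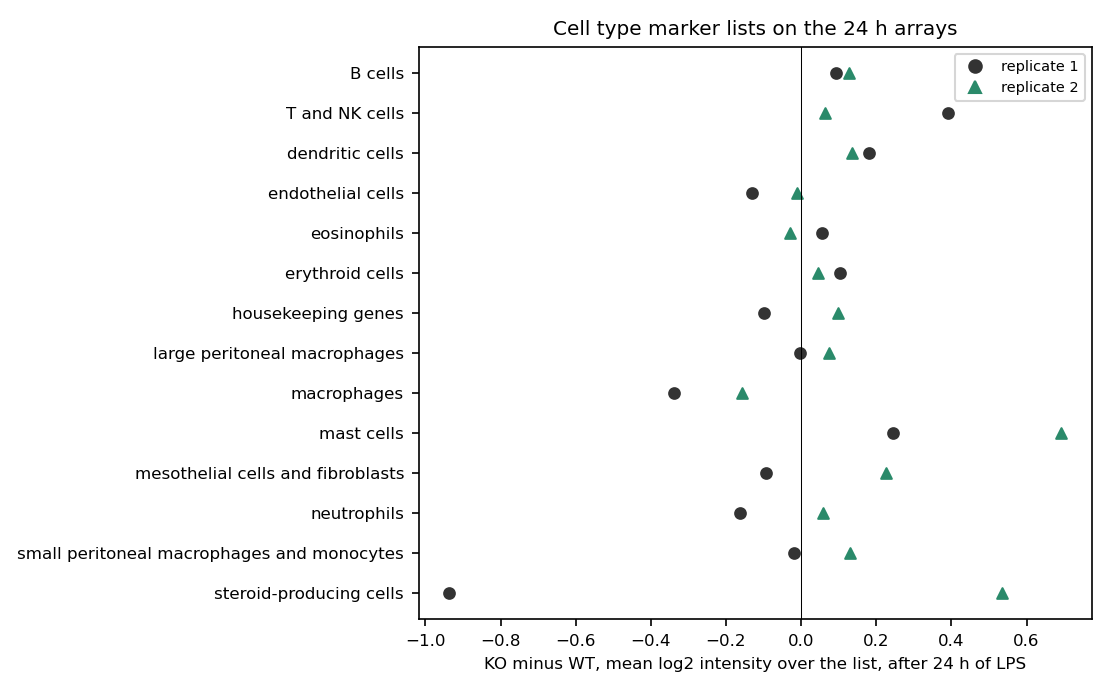
Each row is a list of cell type markers, or the housekeeping genes as a reference, and each point the mean log2 intensity over its tested members in KO minus that in WT on 1 of the 24 h arrays. The means of the mast cell, T and NK cell, B-cell, dendritic and erythroid markers were above 0 on both arrays. T and NK cells were at 0.063 in replicate 2. The B-cell (0.094 and 0.13) and erythroid (0.10 and 0.046) differences were close in size to those of the housekeeping genes, at -0.099 and 0.097. Of the 6 erythroid markers, 1 or 2 were above background in a channel. Macrophage markers were at -0.34 and -0.16 with Lyz2 but at -0.15 and 0.026 without it. Markers of steroid-producing cells lay at -0.94 in replicate 1 and 0.54 in replicate 2.

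Of the gene groups examined, the GBPs and IRGs had the highest median ratio. All 22 members were tested, 19 were higher in KO on both arrays and 0 were lower on both. The median ratio was 0.55 (0.43 and 0.62 on the 2 arrays), against 0.0038 over all genes tested. Gm4841 and Gbp4 were called, and 11 of the 22 passed with the replicate term, all higher, beside 0.287% of all genes. The list was chosen with earlier results of these data known. Median ratios of the same 22 genes were 0.40 unstimulated, 0.32 after 1 h and 0.17 after 4 h, so a higher median in KO was not limited to 24 h.

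Gm4841, an IRG family member, had the largest mean ratio of all genes tested. Its level was 10.82 and 10.87 in KO and 8.71 and 8.39 in WT, a 4.89-fold difference (ratio 2.29 ± 0.18, adjusted p = 0.0116). The KO channels differed from each other by less than the WT channels did, and all 4 lay above the unstimulated range. Gbp4 was 12.07 and 12.10 in KO and 10.47 and 10.83 in WT, 2.72-fold higher (ratio 1.44 ± 0.15, adjusted p = 0.0451). In WT both genes were lower after 24 h than after 4 h, with mean levels of 8.55 against 10.53 for Gm4841 and 10.65 against 11.85 for Gbp4. In KO the means were 10.84 against 11.14 for Gm4841 and 12.09 against 12.42 for Gbp4, also lower after 24 h than after 4 h. F830016B08Rik, another IRG, was 7.98 and 8.11 in KO and 6.98 and 6.53 in WT (adjusted p = 0.136, and 0.000152 with the replicate term). Gbp5 had ratios of 0.74 and 1.41, Iigp1 0.41 and 1.53 and Gbp2 0.72 and 0.56, and all passed with the replicate term without being called. At the lower end of the list, Irgm1, Gbp2b and Gbp10 changed sign between the arrays, with mean ratios from 0.077 to 0.13.

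Promoter sequence is shown for 2 members of this family and for Irf1, because an interferon response element is what the family is known to share. The motif searched was GAAA, 2 bases of any kind and GAAA, on either strand, in RefSeq's windows of GRCm38.p6 from 250 bases before to 50 after a start site. Of the 12 list members that have a window, 11 (91.7%) held it, against 652 of 16527 tested genes (3.95%). A STAT motif, TTC, 3 bases of any kind and GAA, was held by 7 of the 12 (58.3%), against 9.16% of tested genes, and a κB motif, GGG, 2 bases of any kind and TTTCC, by 1 (8.33%), against 1.81%. Across all genes that passed with the replicate term and have a window, 12 of 53 higher in KO (22.6%) and 3 of 65 lower in KO (4.62%) held the interferon element, 14 (26.4%) and 7 (10.8%) the STAT motif, and 3 (5.66%) and 0 the κB motif. The STAT and interferon motifs can overlap, and a match describes letters, not a bound site. The 250 bases before the start follow, 5′ to 3′ on the plus strand, with the interferon element in capitals for Gbp2 (chr3:142620413-142620662) and Gbp5 (chr3:142496684-142496933) and the STAT motif in capitals for the upstream of 2 windows of Irf1 (chr11:53769764-53770013).
Gbp2: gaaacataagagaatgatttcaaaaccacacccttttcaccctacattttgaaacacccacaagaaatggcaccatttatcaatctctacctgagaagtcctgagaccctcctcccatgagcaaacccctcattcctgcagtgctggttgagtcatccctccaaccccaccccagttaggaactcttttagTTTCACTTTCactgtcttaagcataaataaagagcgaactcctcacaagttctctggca
Gbp5: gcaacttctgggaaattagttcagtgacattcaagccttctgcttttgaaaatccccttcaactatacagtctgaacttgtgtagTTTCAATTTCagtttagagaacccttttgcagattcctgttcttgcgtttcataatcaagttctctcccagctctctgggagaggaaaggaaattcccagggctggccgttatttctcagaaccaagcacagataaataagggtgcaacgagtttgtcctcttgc
Irf1: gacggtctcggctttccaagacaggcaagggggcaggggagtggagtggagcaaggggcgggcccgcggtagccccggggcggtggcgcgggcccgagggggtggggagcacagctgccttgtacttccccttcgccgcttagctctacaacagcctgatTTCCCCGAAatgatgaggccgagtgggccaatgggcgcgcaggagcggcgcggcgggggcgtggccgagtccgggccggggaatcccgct
None of the 3 motifs was in the windows of Clic5, Bdh2, Tmeff1 or Lyz2, the called genes that have one.

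Ifng and the T and NK cell genes named in this paragraph were not called and passed with the replicate term. Ifng, the cytokine itself, was 12.31 and 12.28 in KO and 9.40 and 10.76 in WT. Its ratios of 2.90 and 1.52 gave a 4.64-fold mean difference (2.21 ± 0.34) that had an adjusted p of 0.136, and of 0.00912 with the replicate term. The KO channels did not overlap with the WT channels, but the WT channels differed by more than 1 from each other. Unstimulated, the Ifng levels had been 6.48 and 6.56 in KO and 6.40 and 6.32 in WT, with a mean ratio of 0.16. Tbx21, the transcription factor of Th1 and NK cells, had ratios of 0.71 and 0.73 (adjusted p = 0.237, and 0.0199 with the replicate term). Il17a, a T-cell cytokine that was singled out after its values were seen, had ratios of 1.69 and 0.66 (0.312, and 0.00281 with the term). The T-cell genes Cd3d and Thy1, also singled out afterwards, had ratios of 1.38 and 1.14 in replicate 1 but -0.031 and -0.028 in replicate 2, and passed with the term. The T and NK cell marker list had a median ratio of 0.33 in replicate 1 and -0.028 in replicate 2, and Cd3d, Thy1 and Tbx21 are among its 23 members. Ifng and Il17a, which are not, were above 0 on both arrays. The part of cell composition in these values was not tested.

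Irf1, Il15, Il12rb1 and Nlrc5, which interferon-γ is known to induce or which act in the interferon-γ pathway, were not called and passed with the replicate term. Irf1, a transcription factor of the interferon response, was 14.45 and 14.50 in KO and 13.44 and 13.58 in WT, 1.95-fold higher (ratio 0.97 ± 0.13, adjusted p = 0.0901, and 0.00481 with the replicate term). The other Irf1 probe was not above background in any 24 h channel. Before 24 h the mean Irf1 ratio had been 0.026, -0.41 and -0.27, and the mean WT level was 16.25 after 4 h and 13.51 after 24 h. Il15, which sustains NK and memory T cells, was 9.07 and 9.19 in KO and 8.39 and 7.77 in WT (ratio 1.05 ± 0.18, adjusted p = 0.184, and 0.00128 with the term). It had peaked at 4 h without a difference, at a mean of 11.96 in WT and a ratio of 0.044. Il12rb1, a chain of the IL-12 and IL-23 receptors, was 10.28 and 10.34 in KO and 8.88 and 9.28 in WT (ratio 1.23 ± 0.16, adjusted p = 0.0709, and 0.00481 with the term), and its other probe gave 0.54. Nlrc5, the transactivator of MHC class I genes, was 1.55-fold higher (ratios 0.68 and 0.59, 0.0101 with the term) although its other probe gave 0.17. Calhm6 (ratios 1.05 and 1.49) and Vcam1, an adhesion molecule (1.33 and 0.96, other probe 0.49), passed with the replicate term as well.

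**Figure D3:**
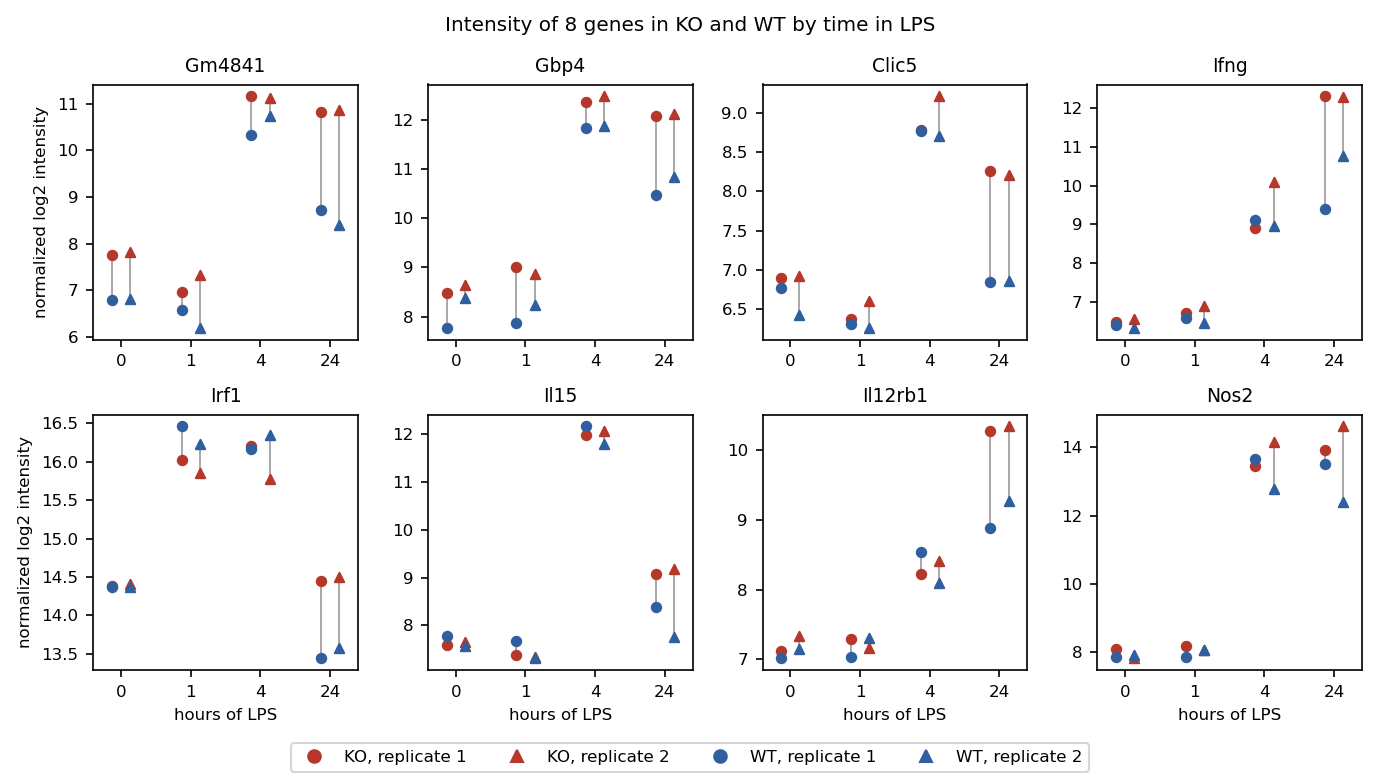
Normalized log2 intensity (y axis, different range per gene) of 8 genes in KO (red) and WT (blue) by hours of LPS, with a line joining the channels of 1 array. At 24 h the KO points of Gm4841, Gbp4, Clic5, Ifng, Irf1, Il15 and Il12rb1 lie above both WT points, whereas the replicate 1 points of Nos2, at 13.92 and 13.52, are close together.

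Other interferon-related lists had medians closer to 0. Of 34 tested type I interferon-stimulated genes, 18 had a ratio above 0 on both arrays and 2 below 0, with a median of 0.16 (0.038 in replicate 1 and 0.29 in replicate 2). None was called, and 2 passed with the replicate term: Ifit2, with ratios of 0.35 and 1.89, and Ifi44, with 0.20 and 1.29. The median had been 0.33 unstimulated. Among 18 MHC class I and immunoproteasome genes, 9 were higher on both arrays and 5 lower, with a median of 0.11. Psmb9, an immunoproteasome subunit, had ratios of 0.32 and 0.54 and missed the threshold with the replicate term (adjusted p = 0.0526). The chaperones Pdia3 and Calr of the same list were lower in KO and passed with that term. The mean ratios of the 13 MHC class II genes lay between -0.23 and 0.066, with list medians of -0.17 in replicate 1 and 0.088 in replicate 2. Signs differed between the arrays for 10 of the 13, and 0 passed in either fit.

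**Figure D4:**
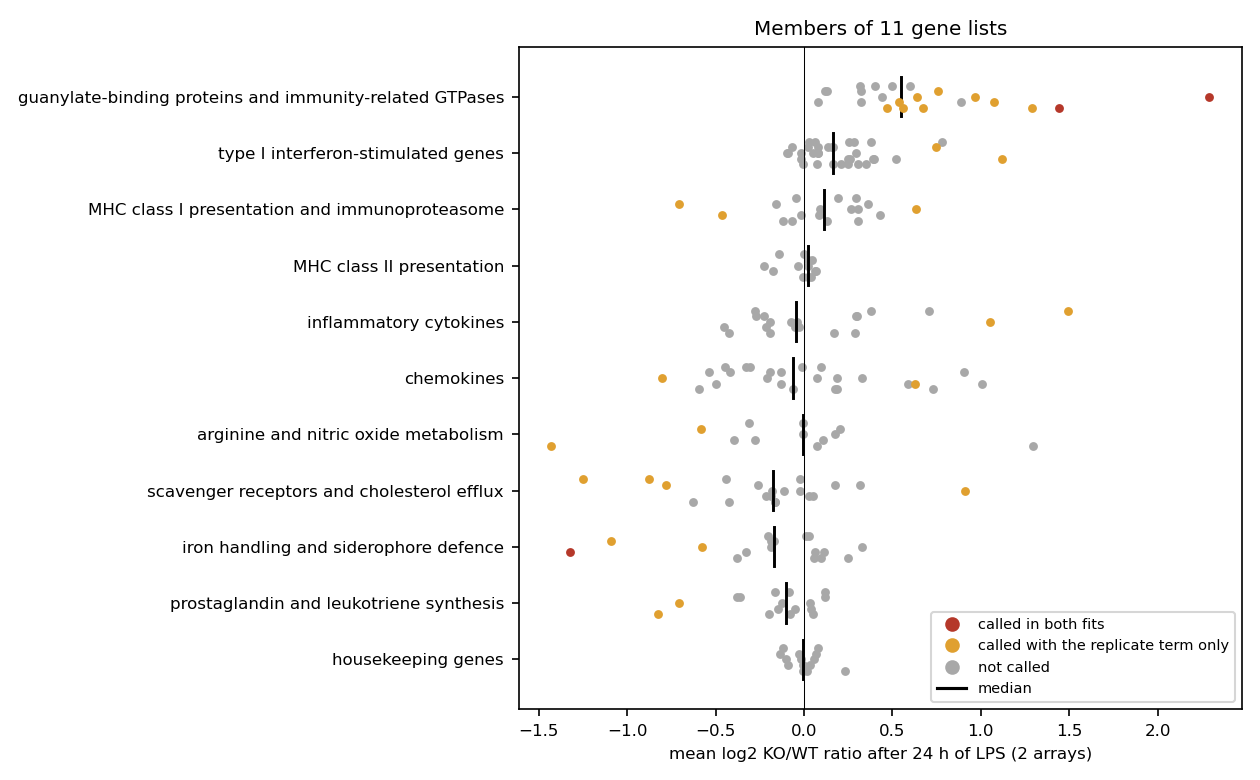
Mean log2 KO/WT ratio after 24 h of LPS (x axis) of each tested member of 11 gene lists, with the list's median as a black bar. The GBP and IRG row, with a median of 0.55 and no member below 0, lies to the right of the others, while the scavenger receptor, iron and prostaglandin rows hold their coloured members mostly on the left.

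Clic5, a chloride intracellular channel protein tied to the cytoskeleton, was 8.26 and 8.20 in KO and 6.85 and 6.87 in WT. The difference was 2.59-fold (ratio 1.37 ± 0.14, adjusted p = 0.0389), and at the other times its mean ratio was between 0.21 and 0.31. NM_001039647 was 11.48 and 11.78 in KO and 9.99 and 9.86 in WT (3.26-fold, adjusted p = 0.0119), and XR_105914 was 8.0 and 7.78 against 7.05 and 6.69 (2.02-fold, adjusted p = 0.0451). Among named genes that passed with the replicate term without being called, Gm15056 (ratios 1.64 and 2.73), Il19, a cytokine of the IL-10 family (1.03 and 1.95), and the serine protease inhibitor Serpina3f (1.48 and 1.41) had the largest increases after Ifng. A further probe gave 1.44 for Il19 and 1.08 for Serpina3f. Il19 already differed after 4 h, at a mean ratio of 1.33. Slc13a3, a dicarboxylate transporter (0.59 and 2.19), Urah, an enzyme of urate breakdown (0.70 and 2.06), and Selp, P-selectin (0.24 and 2.42), rested mostly on replicate 2. So did Cpa3, mast cell carboxypeptidase, at 0.65 and 1.76, the highest member of the mast cell marker list.

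Among the lower genes, Bdh2 encodes a dehydrogenase that has been tied to ketone use and to a mammalian siderophore. It was 6.94 and 7.16 in KO and 8.10 and 8.64 in WT, a 2.50-fold lower signal (ratio -1.32 ± 0.11, adjusted p = 0.0116). Its mean ratio had been 0.27, 0.0066 and -0.076 at the earlier times. Mean WT signal was 7.0 after 4 h and 8.37 after 24 h, whereas mean KO signal was 6.93 and 7.05. In the list of 17 genes of iron handling, 9 were lower in KO on both arrays and 1 higher, with a median of -0.17. Hp, the haemoglobin scavenger haptoglobin (-1.52 and -0.67), and Hmox1, haem oxygenase 1 (-0.21 and -0.94), also passed with the replicate term, and Hp had mean ratios of -0.74, -1.02 and -1.07 at the earlier times.

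Tmeff1, a membrane protein with EGF-like and follistatin-like domains, was 7.82 and 8.16 in KO and 8.95 and 9.30 in WT (ratio -1.13 ± 0.11, adjusted p = 0.0261). Pdgfb, a chain of platelet-derived growth factor and itself a precursor that convertases cleave, was 9.89 and 9.82 in KO and 10.74 and 10.68 in WT (ratio -0.86 ± 0.09, adjusted p = 0.0451). For either gene the KO and WT channels were apart by a nearly equal amount on both arrays, and the mean ratios at earlier times were between -0.08 and 0.25, with single arrays from -0.12 to 0.45. Each has a dimmer probe with a smaller ratio, -0.43 for both, and with the mean of all probes neither was called. Of the 15 growth factor genes tested, 5 were lower on both arrays and 0 higher, and Pdgfb alone passed.

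**Figure D5:**
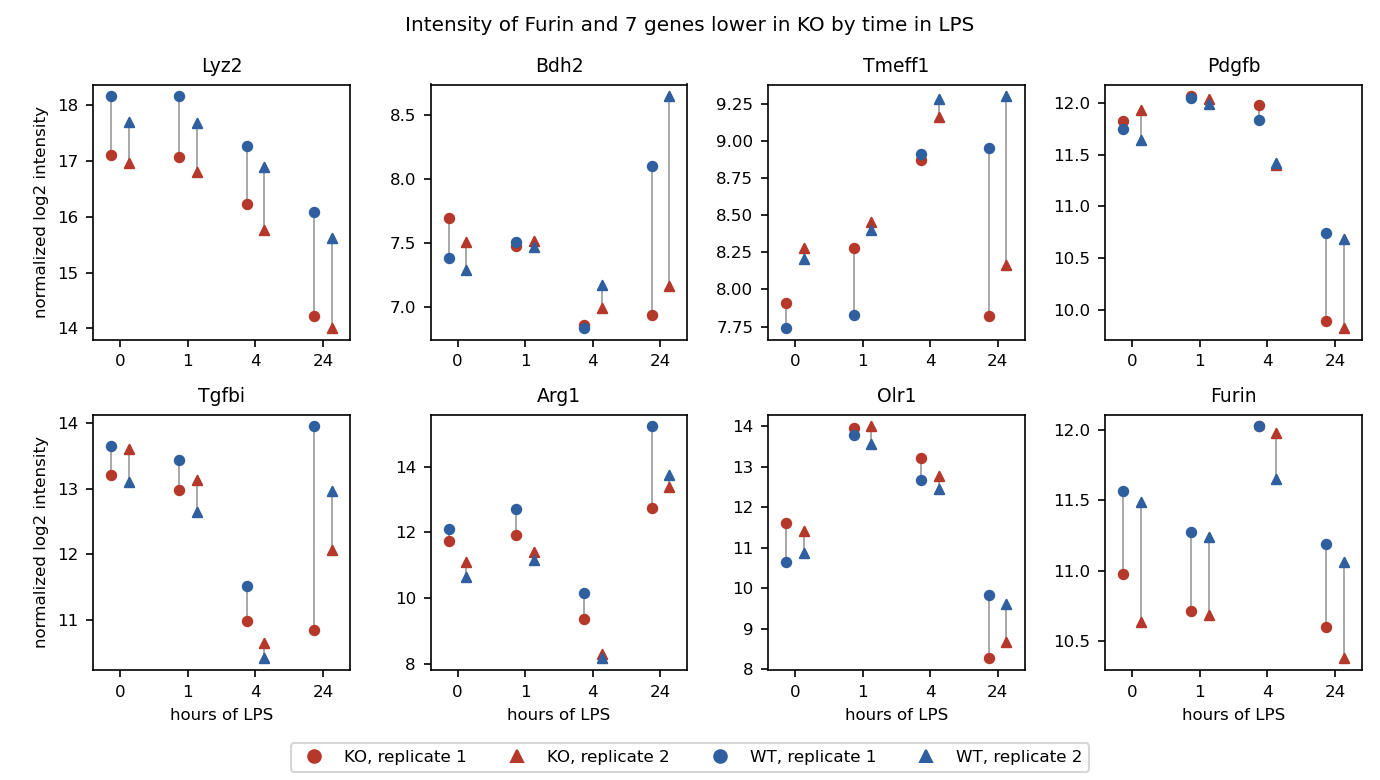
Normalized log2 intensity (y axis, different range per gene) of Furin and 7 genes lower in KO, in KO (red) and WT (blue) by hours of LPS, with a line joining the channels of 1 array. Lyz2 was lower in KO at every time, whereas Olr1 was higher in KO on every earlier array and lower on both at 24 h, and the Arg1 points of replicate 2 at 24 h, 13.38 and 13.75, are close together.

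Tgfbi, an extracellular matrix protein named for its induction by TGF-β, had the lowest mean ratio of all genes tested. It was 10.85 and 12.06 in KO and 13.95 and 12.96 in WT, so the channels did not overlap but the ratios of -3.10 and -0.90 were far apart (mean -2.0 ± 0.47, adjusted p = 0.473, and 0.00139 with the replicate term). The earlier mean ratios lay between -0.15 and 0.031. The 21 other genes tested of the TGF-β list, its ligands, receptors and SMADs, gave 0 calls in either fit, and Tgfb1 had ratios of -0.053 and -0.61. Acsbg1, an acyl-CoA synthetase, had ratios of -2.21 and -1.30 and passed with the replicate term (adjusted p = 1.97e-05), as did AI504432 at -2.37 and -1.07. Fn1, fibronectin, had ratios of -0.54 and -1.32.

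Arg1 and Olr1 were not called, and both passed as lower with the replicate term. Arg1, which splits arginine to ornithine and urea, was 12.74 and 13.38 in KO and 15.23 and 13.75 in WT (mean -1.43 ± 0.46, adjusted p = 1.00, and 0.00565 with the term), so most of its difference came from replicate 1. Nos2, which makes nitric oxide from the same substrate, was 13.92 and 14.61 in KO and 13.52 and 12.42 in WT, and its mean ratio of 1.30 ± 0.43 did not pass in either fit (0.156 with the term). Ass1, which regenerates arginine, had ratios of -0.59 and -0.58 and passed with the term. Olr1, the oxidized-LDL receptor LOX-1, was 8.27 and 8.67 in KO and 9.84 and 9.60 in WT (ratio -1.25 ± 0.16, adjusted p = 0.0702, and 0.00481 with the term). At every earlier time Olr1 had been higher in KO, with means of 0.75, 0.30 and 0.43. Of the 20 scavenger receptor and cholesterol efflux genes, 12 were lower on both arrays and 2 higher, with a median of -0.17. Stab1 (-1.24 and -0.51) and Lpl, lipoprotein lipase (-0.14 and -1.43), passed with the term as lower and Apoc1, an apolipoprotein (0.57 and 1.25), as higher.

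Among Toll-like receptor components, 10 of 38 were higher and 10 lower on both arrays, with a median of 0.014. Tlr2, the receptor for bacterial lipoproteins, was 12.53 and 12.68 in KO and 13.40 and 13.55 in WT (ratio -0.87 ± 0.19, adjusted p = 0.364, and 0.0111 with the term). It was the sole gene of that list to pass, and Cd14, the LPS co-receptor, had ratios of -0.39 and -1.25 and did not (0.238). In prostaglandin and leukotriene synthesis, 8 of 16 genes were lower on both arrays and 2 higher. Tbxas1, thromboxane synthase (-0.79 and -0.85), and Alox5ap, the activating protein of 5-lipoxygenase (-0.52 and -0.89), passed with the term. Itgax, the integrin chain CD11c (-0.73 and -0.56), the chemokine Cxcl14 (-0.79 and -0.81) and Nt5e, the ectonucleotidase CD73 (-1.86 and -0.39), did so too.

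Il1b, Il6, Tnf and Il10, cytokine genes of the acute LPS response, did not pass in either fit after 24 h. Il1b was 17.21 and 16.62 in KO and 17.21 and 17.51 in WT, with ratios of -0.0021 and -0.90. Il6 had ratios of 0.29 and -0.72, Tnf 0.30 and -0.86 and Il10 -0.19 and 0.53, so their signs differed between the arrays. Over 20 tested inflammatory cytokine genes the median was -0.047, but 0.28 in replicate 1 and -0.33 in replicate 2, and only Il19 and Il15 passed with the replicate term. Ch25h, an enzyme that makes 25-hydroxycholesterol, had ratios of -1.58 and 0.32, and Il33 -0.81 and 1.38. Trem1, an amplifying receptor of myeloid cells that had a mean ratio of 1.32 after 4 h, was at 0.036 and -0.12. Of 25 chemokine genes, 6 were higher and 6 lower on both arrays. Ccl8, a monocyte chemoattractant, passed with the term as higher, with ratios of 0.38 and 0.88 (adjusted p = 0.0245), and Cxcl14, given above, as lower. Ccl5 had ratios of 1.05 and 0.76 and missed the threshold with the term (0.0606). The 14 housekeeping genes had a median of -0.0058, and 0 passed in either fit.

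Whether the 24 h ratio differed from that before LPS was tested directly. In the fit without the replicate term, 0 genes (0%) differed from the unstimulated ratio at an adjusted p under 0.05 in limma, with 1230 below 0.05 before adjustment and 0.131 as the smallest adjusted p. Against the mean of the other 3 times it was also 0 (0%), with 1162 unadjusted and a smallest adjusted p of 0.0756, that of Bdh2. With the replicate term, 78 genes (0.211%) differed from the unstimulated ratio, 32 upward (0.0866%) and 46 downward (0.124%). Against the other times 113 (0.306%) differed, 45 upward (0.122%) and 68 downward (0.184%). Of the 216 genes that passed at 24 h with the term, 66 were among these 113. All 9 called genes were among them, so each of their ratios differed from its own mean at the other times in the fit with the term. The difference was a change of sign for Olr1, and Jag1, a Notch ligand, went from a mean ratio of 1.19 unstimulated to -0.79. Ccl2, a monocyte chemoattractant, had been at 1.93 unstimulated and was at -0.13, with 0.28 in replicate 2. The 24 h ratios of Jag1 and Ccl2 themselves did not pass in either fit.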

How the data were processed

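The RNA in each channel was hybridised to 2-colour Agilent whole-genome mouse arrays, 8 on 1 slide. Per the file headers, the authors converted the scans to values with Agilent Feature Extraction 10.7.3, and the deposited scanner files hold spot intensity values for Cy5 and Cy3 that are not normalized. The authors also deposited a table of normalized log2 ratios, which was used as an alternative. It correlated at 0.980 to 0.989 with the ratios computed here. Per the labels, replicates are biological. Precision was limited by the number of arrays, 2 per time.

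Median spot intensities were corrected with normexp (offset 50, limma 3.58.1 in R 4.3.3), normalized by loess within arrays with control spots at weight 0, and by quantile between arrays. Outlier spots were left out and spots of a probe averaged. A gene was represented by its brightest probe, named through RefSeq transcripts (GRCm38.p6), and kept at a mean log2 intensity of at least 6. Of 55681 probes, 28172 could not be named here. Log2 KO/WT ratios were fitted with limma (lmFit, eBayes) on all 8 arrays with 1 coefficient per time and 4 residual degrees of freedom. P-values were adjusted (Benjamini-Hochberg) over 36949 genes and transcripts, with a threshold of 0.05. The model was tested on simulated data.

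The labels share replicate numbers between times. Differences between replicates 1 and 2 correlated at 0.475 to 0.679 in all 6 pairs of times. The dye orientation shares the replicate number and may give the same correlation. The fit that defines the called genes did not pair the arrays by number. Pairing entered only through the replicate term, which left 3 residual degrees of freedom. That term itself passed the threshold for 3630 genes. Values with the replicate term are given beside the results they change. The gene lists and tests were chosen with earlier results of these data known. Genes were named by rule: every called gene, the 10 largest increases and decreases with the replicate term that had the same sign on both arrays, up to 4 members of a list with the largest ratios of the same sign, genes that the study discusses in LPS-treated macrophages, and genes that differed most from other times. Further list members were named for their role, and Il17a, Cd3d, Thy1 and Gbp2 after their values were seen. Certain items are not reported here. The alternatives covered background correction, normalization, filters, probe choice, the samples in the fit, the variance prior and the methods' t-test.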

Additional observations from a re-analysis of the deposited data

Results flagged for a closer look

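With the replicate term, the KO/WT ratio after 24 h differed from the mean ratio at the other 3 times, at an adjusted p under 0.05 in limma, for the genes given here. In the fit without that term 0 genes differed, with 1162 below 0.05 before adjustment, and other settings without it gave at most 2. The values are differences between log2 ratios, and the cause of none was tested.

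Upward differences were 1.86 for Gm15056, 1.51 for Gm4841, 1.37 for Calhm6, 1.21 for Slc10a6, 1.18 for Irf1, 1.17 for Il12rb1, 1.13 for NM_001039647, 1.11 for Clic5 and 1.10 for Il15. They were 0.93 for Gbp5, 0.90 for F830016B08Rik, 0.89 for Gdap10, 0.86 for XR_105914 and 0.79 for Gbp4. Gbp5, with an adjusted p of 0.0466, was closest to the threshold among these.

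Downward differences were -1.97 for Tgfbi, -1.77 for AI504432, -1.74 for Olr1, -1.67 for Nt5e, -1.52 for Jag1, -1.39 for both Acsbg1 and Bdh2, -1.28 for Cxcl14, -1.24 for Arg1 and -1.23 for Tmeff1. They were -1.13 for Ccl2, -1.06 for Lyz1, -0.95 for Pdgfb, -0.93 for Tlr2, -0.74 for Lyz2 and -0.69 for Tbxas1. For Jag1 and Ccl2 the ratio after 24 h did not itself pass in either fit.

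Against the unstimulated ratio alone, Il19 differed by 1.51 and Il1b by -1.79, both with an adjusted p of 0.0396. The Il1b ratio had been 1.34 before LPS, and its ratio after 24 h did not pass in either fit.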

How the results depend on the processing

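The replicate term moved the count of called genes from 9 to 216 (106 higher, 110 lower), or from 0.0244% to 0.585% of all tested. The counts that differed from the unstimulated ratio and from the other times went from 0 to 78 and 113. Called members of pathway lists went from 4 to 42. The pathway lists were chosen with earlier results of these data known, so their counts here only describe how calls moved between settings. Called neighbours of Furin and Lyz2 went from 0 to 6, which was 1.5% around either gene against 0.777% of all named genes. Furin, at -0.64, passed with the term (adjusted p = 0.0227 in limma). Aquantile, loess alone and the deposited table each gave 14 calls, 9 of them lower, and 1 difference from the other times. The ratios of the called genes were the same with Aquantile as with loess alone, and nearly equal in the deposited table (Lyz2 -1.668 in each). These settings are therefore not separate checks. Processed signals gave 2 calls (1 higher, 1 lower), 0 list members and -1.69 for Lyz2 (adjusted p = 0.0918). Restricting to probes above background gave 5 calls (2 higher, 2 list members), and the mean of all probes 4 calls (2 higher, 2 lower, 2 list members). Fitting only the 24 h arrays gave 32 (17 higher, 15 lower), 10 list members and 2 neighbours. A trended robust prior gave 25 (11 higher, 14 lower), 2 differences from the other times, 7 list members and 1 neighbour. All 9 calls were shared with each of these settings except processed signals (2), probes above background (5) and the mean of probes (4). Without the 4 h arrays, chosen after seeing the data because of Furin, 11 genes, 2 list members and 1 neighbour were called. With the replicate term added there, 215 were called, 189 of them shared with the 216. The methods' t-test gave 1516 genes unadjusted (786 higher, 730 lower) and 0 adjusted.

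With each array left out in turn there were 0 to 11 calls, with 0 to 5 higher, 0 to 6 lower, 0 to 3 list members and 0 to 1 neighbours. Lyz2 ranged from -1.85 to -1.61 and did not pass without either 24 h array (adjusted p = 0.0549 without replicate 1 and 0.0825 without replicate 2), and without either unstimulated array 4 calls were left. Of the genes followed through every setting, those whose sign turned when a 24 h array was left out were Ch25h (-1.58 to 0.32), Ccl2 (-0.53 to 0.28), Cd3d (-0.031 to 1.38), Thy1 (-0.028 to 1.14), Tnf (-0.86 to 0.30), Il6 (-0.72 to 0.29), Il10 (-0.19 to 0.53), Il33 (-0.81 to 1.38) and Trem1 (-0.12 to 0.036). The macrophage markers without Lyz2 were also chosen after seeing the data. Where a time was left with 1 array, that array was assumed to vary like the other times. The 2 arrays per time limit all of these counts.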

Other observations

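Genes of protein folding in the endoplasmic reticulum formed a list that was drawn up with these ratios known, and is given as a description. All 22 members were tested, 17 were lower in KO on both 24 h arrays and 0 higher, and the median ratio was -0.37. Over all genes tested, 21.6% were lower on both arrays, and 0.298% passed with the replicate term as lower. At the earlier times the medians of the list were 0.055 unstimulated, -0.032 after 1 h and 0.11 after 4 h. None was called, and 6 passed with the replicate term as lower: the disulfide isomerase Pdia3 (-0.71), the chaperones Hsp90b1 (-0.68), Hspa5 (-0.63) and Calr (-0.47), the co-chaperone Dnajc3 (-0.66) and Edem2 (-0.47), which takes part in the disposal of misfolded glycoproteins.

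Another set of genes had large ratios of opposite sign on the 24 h arrays. Mgarp had ratios of -2.99 and 2.23 and Cyp11a1, the side-chain cleavage enzyme of steroid synthesis, -2.23 and 1.81, so that KO was the lower channel in replicate 1 and the higher one in replicate 2. Averaged over the markers of steroid-producing cells, KO minus WT had these signs at every time. It was -1.45 and 0.66 unstimulated and -1.45 and 0.71 after 1 h. After 4 h it was -1.37 and 0.68, and after 24 h -0.94 and 0.54. Sfrp2 (-3.61 and 3.11), Sparc (-3.12 and 2.32) and Pcolce (-3.65 and 2.47), which encode secreted or matrix proteins, also had a ratio below 0 in replicate 1 and above 0 in replicate 2. The list of mesothelial and fibroblast markers, of which Sparc is a member, did not follow: 8 of its 18 genes were higher on both arrays and 0 lower, with medians of 0.021 and 0.11, and Lum had ratios of 1.54 and -0.17. Of these 5 genes, Pcolce alone passed with the replicate term (adjusted p = 0.0201 in limma), although its sign differed between arrays. These genes were chosen after their values were seen.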
